A study of Komagataella phaffii with 15 samples.

Results

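Within the flocculin (*FLO*) family of the yeast *Komagataella phaffii*, 4 genes were read at a low level throughout a chemostat experiment: *BSC1* (PP7435_Chr1-1549), *FLO5-2* (PP7435_Chr3-1228) and the unnamed genes PP7435_Chr2-0004 and PP7435_Chr4-1013. They are 4 of the 13 family genes and of the 5341 transcripts in the files. They were chosen by their measured level, on the rule that the group mean, computed from all reads, stayed under 20 TPM (reads per base of transcript, scaled to the same total in each library) in each of the 5 groups of samples, so their low level is a description and not a finding. The highest group mean was 17.8 TPM for PP7435_Chr4-1013 and 16.4 TPM for *FLO5-2*, the members nearest to the limit, and it was 33.7 TPM for *FLO100* and 36.0 TPM for PP7435_Chr3-1237, the nearest genes above it. A further family gene, *FLO200*, was also under 20 TPM in each group and is not among the 4.

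Flocculins are glycoproteins of the yeast cell wall that let cells stick to each other and to surfaces. Many carry a signal peptide for secretion and a glycosylphosphatidylinositol (GPI) anchor that ties them to the cell surface, with a ligand-binding domain at an exposed end. In *Saccharomyces cerevisiae* the transcription factor Flo8 activates *FLO* genes, and those close to chromosome ends are often silent. In *K. phaffii*, the Bsc1 protein holds a flocculin domain of the Flo11 type, Flo5-2 holds a PA14/GLEYA domain, which binds carbohydrates, and the protein of PP7435_Chr4-1013 holds such a domain nearer to its C-terminus together with a flocculin repeat. No conserved domain was recognised in the protein of PP7435_Chr2-0004. All 4 genes lie near chromosome ends.

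The series asks how *K. phaffii* CBS7435 responds to slow growth, which brings out elongated, pseudohyphal cells in the wild type, and what the loss of Flo8 changes. Poly-A RNA of 15 glucose-limited chemostat samples was sequenced, with 3 biological replicates in each of 5 groups: the *flo8Δ* strain at S1 and S3 and the CBS7435 wild type at S1, S3 and S5. At S1 the cells grew at a rate of 0.1 per h, at S3 at 0.05 per h, and at S5 again at 0.1 per h after the slow phase. The *flo8Δ* strain is a single deletion strain made from CBS7435, which lacks part of the *FLO8* promoter and the start of its coding sequence, so the rest of the transcript could still be counted, and *FLO8* lay between 24.1 and 39.2 TPM over all libraries. *FLO11*, *FLO5-1* and *FLO400* were lower in the *flo8Δ* libraries than in the wild type at both S1 and S3, which fits the labels of the strains. The files held 4163342 to 10843287 reads per library, with a median of 9310698, and wild-type S1 replicate 3 and *flo8Δ* S1 replicate 2 were the shallowest. A chemostat run was sampled at successive points, so groups of 1 strain may share cultures. The tests took all libraries as independent, and their p-values measure the spread between these libraries.

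On all reads, *BSC1* was the weakest of the 4 per length. With a transcript of 4857 bases it gathered 119 to 406 reads per library. Its level was 6.16, 6.67 and 5.99 TPM in *flo8Δ* at S1 and 3.93, 4.54 and 4.26 TPM at S3. In the wild type it was 5.04, 4.61 and 4.64 TPM at S1, 3.84, 4.27 and 4.95 TPM at S3, and 5.65, 4.88 and 7.64 TPM at S5. The *flo8Δ* libraries at S1 thus lay above both S1 of the wild type and S3 of either strain, and S5 of the wild type was the most spread group. These means placed *BSC1* between the 0.861st and the 1.80th percentile of all transcripts.

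*FLO5-2*, of 2628 bases, was read at 14.0, 16.1 and 14.6 TPM in *flo8Δ* at S1 and at 12.6, 13.0 and 12.6 TPM at S3. The wild type had 16.7, 13.6 and 19.0 TPM at S1, 10.7, 11.3 and 14.1 TPM at S3, and 9.15, 9.32 and 13.6 TPM at S5. The *flo8Δ* libraries were close together at either point, and the wild type spread more widely. PP7435_Chr4-1013, of 2601 bases, had the highest all-read levels of the 4 in most groups. It was read at 16.1, 19.7 and 17.6 TPM in *flo8Δ* at S1 and at 14.5, 11.6 and 12.7 TPM at S3. In the wild type it had 16.6, 14.1 and 18.3 TPM at S1, 13.2, 14.1 and 14.0 TPM at S3, and 14.0, 11.98 and 17.7 TPM at S5. Among the groups compared, only *flo8Δ* S3 and *flo8Δ* S1 did not overlap.

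PP7435_Chr2-0004 has a short transcript of 924 bases and rested on 46 to 125 reads per library. It had 11.2, 9.68 and 8.87 TPM in *flo8Δ* at S1 and 8.14, 6.55 and 10.03 TPM at S3. The wild type gave 10.9, 7.80 and 13.9 TPM at S1, 7.42, 7.35 and 9.62 TPM at S3, and 6.08, 6.80 and 9.30 TPM at S5. Its groups overlapped on this scale in each of the 6 comparisons.

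**Figure D1:**
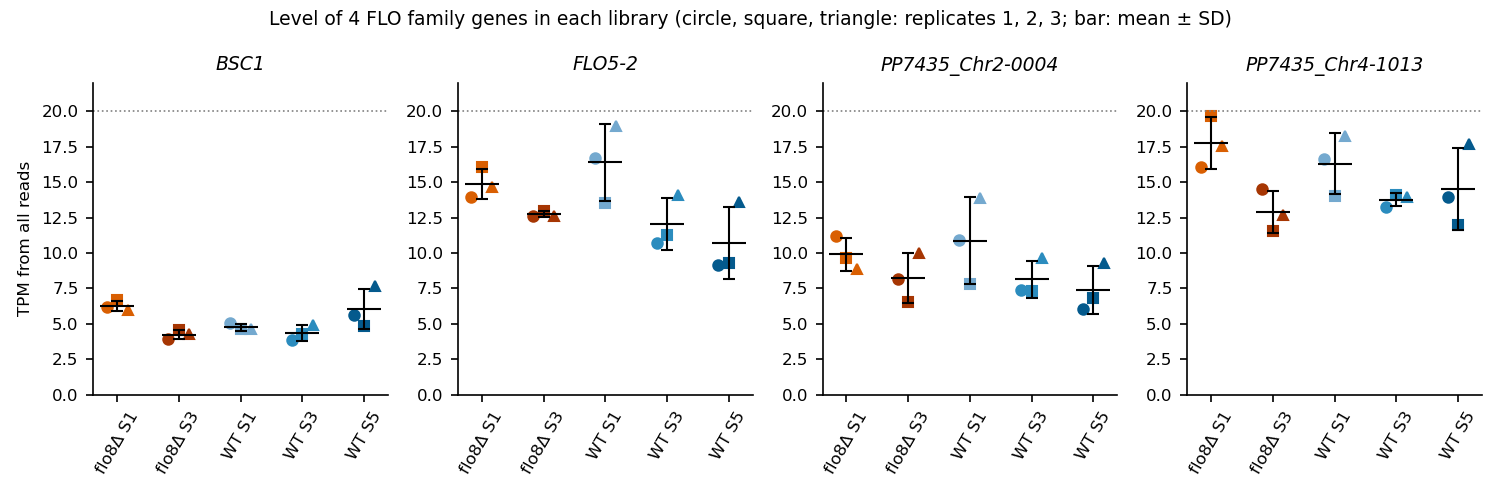
TPM from all reads (vertical axis, dotted line at 20 TPM) of the 4 genes in the 15 libraries, by strain and sampling point. Symbols are replicates and the bar is the mean with its SD (n = 3). *BSC1* lies lowest, between 3.84 and 7.64 TPM, and no library of any of the 4 genes passes 20 TPM.

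Ordered by their means, the 5 groups of a gene formed a short staircase. For *BSC1* the order was 6.27 ± 0.350 TPM in *flo8Δ* S1, 6.06 ± 1.42 in wild-type S5, 4.76 ± 0.244 in wild-type S1, 4.35 ± 0.560 in wild-type S3 and 4.24 ± 0.301 in *flo8Δ* S3 (SD, n = 3 each). *FLO5-2* was highest in wild-type S1 (16.4 ± 2.71 TPM), followed by *flo8Δ* S1 (14.9 ± 1.08), *flo8Δ* S3 (12.7 ± 0.224), wild-type S3 (12.04 ± 1.83) and wild-type S5 (10.7 ± 2.52). PP7435_Chr2-0004 followed the same order of groups as *FLO5-2*, with 10.9 ± 3.06 TPM in wild-type S1 at the top and 7.39 ± 1.69 TPM in wild-type S5 at the bottom. PP7435_Chr4-1013 was highest in *flo8Δ* S1 (17.8 ± 1.83 TPM) and lowest in *flo8Δ* S3 (12.9 ± 1.49 TPM). The step between neighbours in these orders was smaller than the larger SD of the 2 groups in every case but *flo8Δ* S1 against *flo8Δ* S3 for *FLO5-2*. The highest mean exceeded the lowest by factors of 1.48 for *BSC1* and 1.53 for *FLO5-2*. Wild-type S5 replicate 3 was the highest S5 library for all 4 genes, and it also stood apart from the other S5 libraries for *FLO100* and *FLO300*, with 94.1 and 340.0 TPM.

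Differences between groups were tested on the normalized counts with limma over all transcripts, and a gene was taken to differ at an adjusted p under 0.05. No member reached the additional threshold of the study, a log2 fold change beyond 1, in any comparison of all reads. Of all transcripts, 3.19% and 4.22% did so between the strains at S1 and S3, 0.546% between S3 and S1 of *flo8Δ*, 1.43%, 2.39% and 0.395% in the wild type between S3 and S1, S5 and S3, and S5 and S1, and 0.564% in the interaction. The first question was whether the loss of Flo8 changed these genes. At S1, 1 of 4 members differed between the strains, beside 30.8% of all transcripts tested, with 15.1% higher. This was *BSC1*, which was higher in *flo8Δ* than in the wild type by 0.49 ± 0.09 on the log2 scale (SE, adjusted p = 0.0059 with limma). It was also the 1 member whose normalized counts did not overlap between the strains, as those of 47.2% of all transcripts did not. On all reads the difference passed the test in each alternative run, with adjusted p between 0.0020 and 0.028. The study's qRT-PCR went the other way. It found no expression of *BSC1* in *flo8Δ*, and lower *BSC1* at S3 and S5 than at S1 in the wild type. The study's own averages of these RNA-Seq data also had *BSC1* higher in *flo8Δ* than in the wild type at S1. *BSC1* was not among the *FLO* genes that the study listed as higher in the wild type by RNA-Seq. In bulk RNA, a higher level in each cell and a larger share of cells that use the gene cannot be told apart.

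*FLO5-2* (log2 fold change -0.04, 95% interval -0.28 to 0.21), PP7435_Chr2-0004 (-0.01, -0.43 to 0.42) and PP7435_Chr4-1013 (0.22, -0.02 to 0.46) did not pass the test at S1. At S3 none of the 4 members differed between *flo8Δ* and wild type by limma, beside 53.3% of all transcripts, and 0 did at an unadjusted p under 0.05. All 4 overlapped between the strains, and 60.5% of all transcripts did not. The log2 fold changes at S3 were -0.09 for *BSC1* (95% interval -0.32 to 0.14), 0.03 for *FLO5-2* (-0.18 to 0.24), -0.05 for PP7435_Chr2-0004 (-0.41 to 0.30) and -0.16 for PP7435_Chr4-1013 (-0.35 to 0.03). edgeR and DESeq2 on all reads called none of them at S3 either. Without *flo8Δ* S3 replicate 1, PP7435_Chr4-1013 passed at -0.25 (adjusted p = 0.016, limma).

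The clearest changes came with slow growth in the *flo8Δ* strain. There 3 of 4 members were lower at S3 than at S1, beside 31.5% of all transcripts that changed in either direction and 16.8% that were lower. *BSC1* fell by 0.68 ± 0.09 on the log2 scale (adjusted p = 0.00031), PP7435_Chr4-1013 by 0.58 ± 0.10 (adjusted p = 0.0014) and *FLO5-2* by 0.34 ± 0.08 (adjusted p = 0.011, all by limma). For these 3 genes each *flo8Δ* S3 library lay below each *flo8Δ* S1 library in TPM. In normalized counts all 4 did, beside 45.5% of all transcripts without overlap. The remaining member, PP7435_Chr2-0004, had a log2 fold change of -0.39 ± 0.15 and an adjusted p of 0.073. It passed only without *flo8Δ* S3 replicate 3 (adjusted p = 0.046). The calls of *BSC1* and PP7435_Chr4-1013 held in every alternative that tested them, while that of *FLO5-2* was lost when all 15 libraries shared 1 fit (adjusted p = 0.082, limma) and in the estimated counts (0.13, edgeR).

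In the wild type the same step to slow growth moved 1 member, *FLO5-2*, which fell by 0.41 ± 0.12 on the log2 scale (adjusted p = 0.030, limma), beside 32.8% of all transcripts in either direction and 16.7% lower. The normalized counts of *FLO5-2* and PP7435_Chr4-1013 did not overlap between S3 and S1, beside 50.2% of all transcripts, although their TPM did. The *FLO5-2* call was lost without wild-type S1 replicate 1 (adjusted p = 0.096), S3 replicate 1 (0.11) or S3 replicate 2 (0.11). The other values were -0.11 ± 0.11 for *BSC1* (adjusted p = 0.47), -0.36 ± 0.19 for PP7435_Chr2-0004 (adjusted p = 0.19) and -0.21 ± 0.08 for PP7435_Chr4-1013 (adjusted p = 0.067, limma). Leaving out wild-type S1 replicate 2 brought both unnamed genes past the threshold, with adjusted p of 0.045 for PP7435_Chr2-0004 and 0.025 for PP7435_Chr4-1013.

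Whether the strains responded differently to slow growth was tested as the interaction of strain and sampling point, for which 5.12% of all transcripts passed and 2.63% in the negative direction. *BSC1* did, with a difference of -0.57 ± 0.14 between the log2 response in *flo8Δ* and that in the wild type (adjusted p = 0.039, limma). The direction held throughout, but 9 of the 12 fits that left out 1 library gave an adjusted p between 0.052 and 0.093. The call was also lost with edgeR in the estimated counts (-1.01, adjusted p = 0.11) and in the remaining reads (-0.43, adjusted p = 0.11). The differences were 0.08 for *FLO5-2* (95% interval -0.25 to 0.41), -0.03 for PP7435_Chr2-0004 (-0.59 to 0.52) and -0.37 for PP7435_Chr4-1013 (-0.67 to -0.06, adjusted p = 0.13, limma).

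After the return to fast growth, *BSC1* was the only member to differ between S5 and S3 of the wild type, beside 38.8% of all transcripts and 18% higher. It was also the 1 member without overlap in normalized counts, beside 52.7% of transcripts, although its TPM did overlap. It was higher at S5 by 0.53 ± 0.14 on the log2 scale (adjusted p = 0.017, limma). The value was 0.40 without wild-type S5 replicate 3 (adjusted p = 0.010), and the call was lost without S3 replicate 1 (adjusted p = 0.061) or S3 replicate 2 (0.064). *FLO5-2*, PP7435_Chr2-0004 and PP7435_Chr4-1013 had log2 fold changes of -0.11, -0.08 and 0.13 between S5 and S3. Between S5 and S1, both at the fast growth rate, no member passed with limma, beside 3.54% of all transcripts, and *BSC1* and *FLO5-2* had an unadjusted p under 0.05. In normalized counts *BSC1* and *FLO5-2* did not overlap between these groups, beside 31.6% of transcripts, although their TPM did. *BSC1* had a log2 fold change of 0.44 ± 0.14 (adjusted p = 0.098) and *FLO5-2* one of -0.51 ± 0.14 (adjusted p = 0.082). For *FLO5-2* the call depended on the fit, with an adjusted p of 0.039 with the replicate number as a block, 0.030 with DESeq2, 0.011 with all 15 libraries in 1 limma fit and 0.025 without wild-type S5 replicate 3. In the fit of all 15 libraries *BSC1* passed as well (adjusted p = 0.016). PP7435_Chr2-0004 had -0.41 ± 0.21 (adjusted p = 0.25) and PP7435_Chr4-1013 -0.05 ± 0.12 (adjusted p = 0.79, limma).

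**Figure D2:**
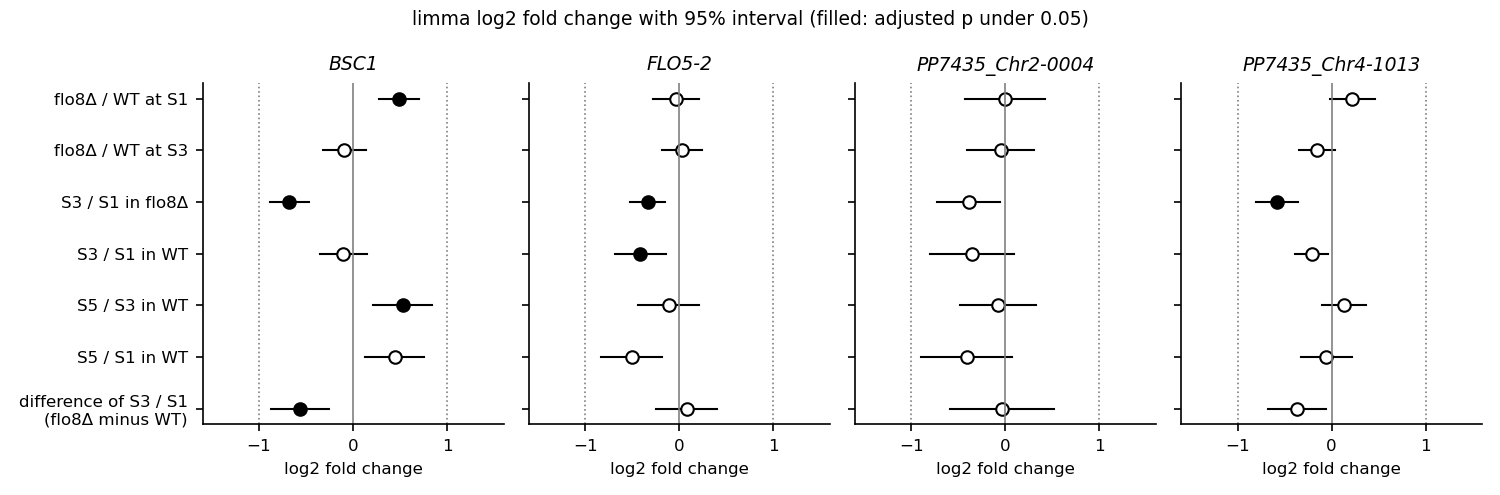
Log2 fold change (horizontal axis) of the 4 genes in 6 comparisons and in the difference between the strains' S3 against S1 responses, from limma, with 95% intervals and dotted lines at -1 and 1. Filled points have an adjusted p under 0.05. In *flo8Δ*, S3 against S1 shows 3 filled points on the left, from -0.68 to -0.34, and no point lies beyond -1 or 1.

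The deposited files hold the reads in 2 ways, and the members differed in how their reads were divided between them. The tables of normalized counts rest on all reads of a transcript. The estimated counts of the per-library files, which their names mark as a stranded setting, came to only 5.06% to 6.11% of those reads. No source states the strandedness of the library kit. Which of the 2 kinds of read stems from the strand of the gene was not tested. In the strongly read family genes *FLO400* and PP7435_Chr1-2104 the estimate held 0.645% and 0.125% of the reads over all libraries. In *FLO8* it held 0.582%. For the typical transcript the estimate was a small part, with a median of 2.77% over the 5276 transcripts that had at least 10 reads in every library, and it passed 50% in 6.71% of them.

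In PP7435_Chr4-1013 the stranded estimate held 96.5% of the reads over all libraries, between 88.2% and 99.8% by library. In *FLO5-2* it held 91.8%, between 80.3% and 97.5%. Shares at least as high as these were found in 0.625% and 1.04% of those 5276 transcripts. The all-read levels and fold changes of both genes thus rest mostly on reads in the estimate. *BSC1* stood between, with 19.3% (12.6% to 24.4%), and PP7435_Chr2-0004 had 3.21% (1.15% to 5.56%), close to the typical transcript. Tags near *FLO5-2* also ranged widely, with 97.6% for PP7435_Chr3-1225 and 71.4% for *FLO200* (PP7435_Chr3-1226), against 1.17% and 0.531% for the tags on either side of *FLO5-2*.

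**Figure D3:**
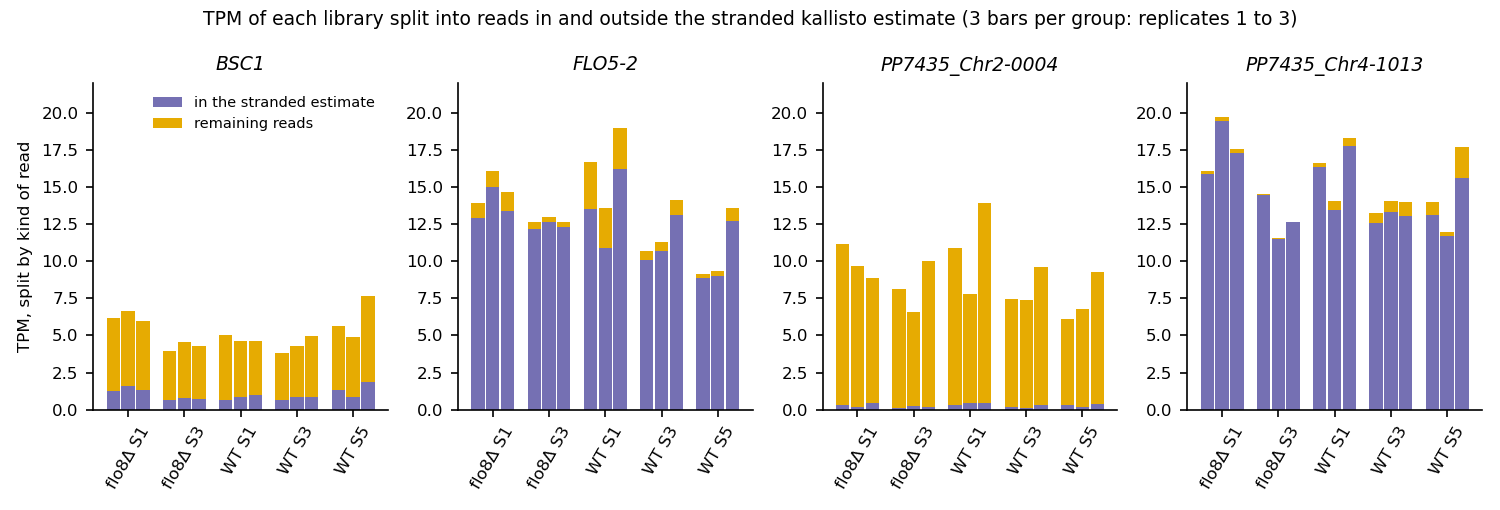
TPM of each library (vertical axis) divided into reads counted in the stranded kallisto estimate (purple) and the remaining reads (yellow), 3 bars per group for replicates 1 to 3. The bars of *FLO5-2* and PP7435_Chr4-1013 are almost wholly purple, with 91.8% and 96.5% of reads in the estimate over all libraries, and those of PP7435_Chr2-0004 almost wholly yellow, with 3.21%.

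Whether a member was under 20 TPM depended on the scale. In the TPM column deposited with the stranded estimates, rescaled to the same total in each library, the group means ran from 224 to 327 for *FLO5-2*, from 259 to 416 for PP7435_Chr4-1013, from 15.6 to 32.7 for *BSC1* and from 3.98 to 8.81 for PP7435_Chr2-0004. There only 8 of the 20 combinations of gene and group were under 20 TPM, against all 20 on the scale of all reads. The deposited column scales the estimated counts alone, 5.06% to 6.11% of the reads, up to the full total. Its values are therefore not levels on the scale of all reads. Set against all reads, the same counts gave group means of 10.2 to 13.8 TPM for *FLO5-2* and 12.9 to 17.5 TPM for PP7435_Chr4-1013. The reads outside the estimate gave 0.357 to 2.88 TPM for *FLO5-2* and 0.0530 to 1.09 TPM for PP7435_Chr4-1013. They gave 3.52 to 4.89 TPM for *BSC1* and 7.09 to 10.5 TPM for PP7435_Chr2-0004, so *BSC1* was not the weakest there.

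Of *FLO5-2*, the reads that remained when the estimate was taken off differed with strain and with growth rate. This subtraction takes the estimated counts to be part of the reads. The remaining reads numbered 31, 15 and 41 in the *flo8Δ* libraries at S1, against 108, 91 and 38 in the wild type at S1. At S3 there were 13, 11 and 10 in *flo8Δ*, against 18, 18 and 29 in the wild type, and at S5 the wild type had 8, 9 and 26. Scaled to TPM, the *flo8Δ* libraries lay below the wild type without overlap at both points, with 1.02 to 1.22 TPM at S1 against 2.68 to 3.19 TPM.

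By edgeR on the remaining reads, *FLO5-2* had a log2 fold change between *flo8Δ* and wild type of -1.30 at S1 (adjusted p = 0.0014), a comparison in which 30.5% of all transcripts passed. At S3 it was -1.13 (adjusted p = 0.018, beside 51.8% of transcripts), and this call was lost without *flo8Δ* S3 replicate 3 (adjusted p = 0.061) or wild-type S3 replicate 3 (0.086). From S1 to S3 the remaining reads fell by 1.74 on the log2 scale in *flo8Δ* (adjusted p = 0.00062, beside 33.1%) and by 1.93 in the wild type (adjusted p = 0.00098, beside 33.4%). Both held without any single library. The difference between these responses was 0.20 (adjusted p = 0.78 with edgeR). At S5 of the wild type they fell by 2.48 relative to S1 (adjusted p = 0.020, beside 3.34%), a call that was lost without S1 replicate 1 (adjusted p = 0.12), S5 replicate 1 (0.11) or S5 replicate 2 (0.064). In the estimated counts of *FLO5-2* the corresponding log2 fold changes were 0.15 and 0.13 between the strains, and no comparison passed with edgeR.

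The protein of *FLO5-1* is similar to that of *FLO5-2*, and how reads were shared between the 2 genes is uncertain. The remaining reads of *FLO5-1* numbered 370, 160 and 392 in *flo8Δ* at S1, against 33499, 38621 and 17401 in the wild type. Those of *FLO5-2* came to 8.38%, 9.38% and 10.5% of them in *flo8Δ* at S1, against 0.322%, 0.236% and 0.218% in the wild type at S1. At S3 this was 2.63% to 3.43% in *flo8Δ*, against 0.179% to 0.281% in the wild type. Whether some remaining reads of *FLO5-2* belong to *FLO5-1* was not tested.

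PP7435_Chr4-1013 showed another pattern on few remaining reads. In *flo8Δ* there were 5, 4 and 9 at S1 and 2, 2 and 1 at S3. In the wild type there were 9, 20 and 7 at S1, 19, 23 and 26 at S3, and 27, 9 and 59 at S5. The *flo8Δ* libraries at S3 lay below all others. At S3 the 5 remaining reads in *flo8Δ* and 68 in the wild type gave a ratio of 0.0694 per sequenced read, with an exact 95% interval of 0.0218 to 0.170 that covers counting error only. By edgeR the log2 fold change was -3.86 (adjusted p = 5.0e-05), and adjusted p stayed between 7.9e-05 and 0.00043 without any single library. In this test and in the interaction below, the gene reached the filter of 10 reads in 3 libraries only through the wild type. That is the strain in which it is higher, so these p-values are no independent support for the difference. At S1 the gene was below the filter, and the 18 reads in *flo8Δ* and 36 in the wild type gave a ratio of 0.558 (0.298 to 1.01) with overlapping libraries. The interaction of strain and sampling point was -2.97 (adjusted p = 0.033, beside 5.8% of transcripts) and was lost in 8 of 12 fits that left out 1 library, with adjusted p up to 0.11. Between S3 and S1 of the wild type the log2 fold change of 0.82 did not pass (adjusted p = 0.11), nor did that of 1.33 between S5 and S1 (0.23). The value between S3 and S1 was 1.25 without wild-type S1 replicate 2, where it passed (adjusted p = 0.035), and 0.47 without S1 replicate 1 (0.36). That between S5 and S1 ran from 0.53 without S5 replicate 3 to 1.77 without S5 replicate 2 and passed in none of these fits.

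**Figure D4:**
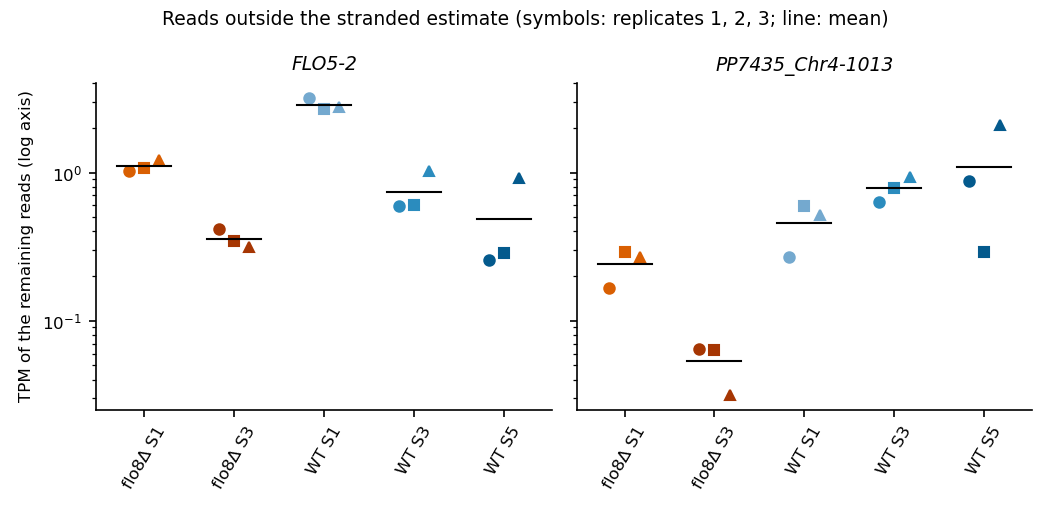
TPM of the reads outside the stranded estimate (vertical axis, log scale) for *FLO5-2* and PP7435_Chr4-1013 in each library, with the mean as a line. The *flo8Δ* libraries of *FLO5-2* lie below those of the wild type at S1 and at S3, and the *flo8Δ* S3 libraries of PP7435_Chr4-1013, with 1 or 2 reads each, lie lowest.

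For *BSC1* both kinds of read went the same way. Between *flo8Δ* and wild type at S1 the log2 fold change was 0.89 in the estimated counts (adjusted p = 0.014) and 0.37 in the remaining reads (adjusted p = 0.035, both with edgeR). The call in the remaining reads was lost in the fit with a replicate block (adjusted p = 0.054) and without *flo8Δ* S1 replicate 1 (0.084), replicate 2 (0.092) or replicate 3 (0.084). From S1 to S3 in *flo8Δ* it was -1.03 in the estimated counts (adjusted p = 0.00068) and -0.57 in the remaining reads (adjusted p = 0.0012). For PP7435_Chr4-1013 the estimated counts fell by 0.56 on the log2 scale from S1 to S3 in *flo8Δ* (adjusted p = 0.0012, edgeR).

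Near these genes by locus tag lay some that differed between the strains. Of the 23 transcripts within 3 locus tag numbers of a member, 8 (34.8%) passed in at least 1 of the 6 comparisons. Passing meant an adjusted p under 0.05 by limma with a log2 fold change beyond 1, which 6.09% of all transcripts tested reached. Of the 8, 7 passed between the strains, where 3.19% of all transcripts passed at S1 and 4.22% at S3. Tag numbers follow the order of the annotation and stand in for distance here. Beside *BSC1*, PP7435_Chr1-1550 had 34.7 ± 0.404 TPM in *flo8Δ* at S3 and 162 ± 51.9 TPM in the wild type at S3, a log2 fold change of -2.23 (adjusted p = 5.5e-07). The next tag, PP7435_Chr1-1551, had 56.8 ± 5.44 TPM and 117 ± 9.26 TPM in these groups (log2 fold change -1.10, adjusted p = 5.5e-07, limma). *BSC1* itself had -0.09 in this comparison.

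Beside PP7435_Chr2-0004, PP7435_Chr2-0005 had 2.01 ± 0.697 TPM in *flo8Δ* and 8.82 ± 2.33 TPM in the wild type at S3, a log2 fold change of -2.18 (adjusted p = 6.7e-06, limma), against -0.05 for the member. Near PP7435_Chr4-1013, genes differed in both directions. PP7435_Chr4-1010 and PP7435_Chr4-1011 were lower in *flo8Δ* at S3, with log2 fold changes of -1.22 and -1.13, and PP7435_Chr4-1012 and PP7435_Chr4-1014, the tags on either side of it, were higher, with 1.27 and 1.595 (adjusted p between 2.9e-08 and 0.0023, limma). PP7435_Chr4-1014 had 42.3 ± 20.8 TPM in *flo8Δ* and 12.4 ± 3.85 TPM in the wild type at S3. The all-read counts do not separate the strands, so in them reads of overlapping neighbours cannot be told apart. The stranded estimate held 73.1% of the reads of PP7435_Chr2-0005, 52.6% of those of PP7435_Chr4-1012, 31.7% for PP7435_Chr4-1014 and 30.1% for PP7435_Chr1-1550. In the other genes near a member that passed it held 1.67% to 16.9%. Near *FLO5-2* the 1 gene that passed was PP7435_Chr3-1231, in *flo8Δ* at S3 against S1, with 7.55 ± 0.434 TPM and 15.5 ± 3.72 TPM (log2 fold change -1.10, adjusted p = 0.0033, limma).

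**Figure D5:**
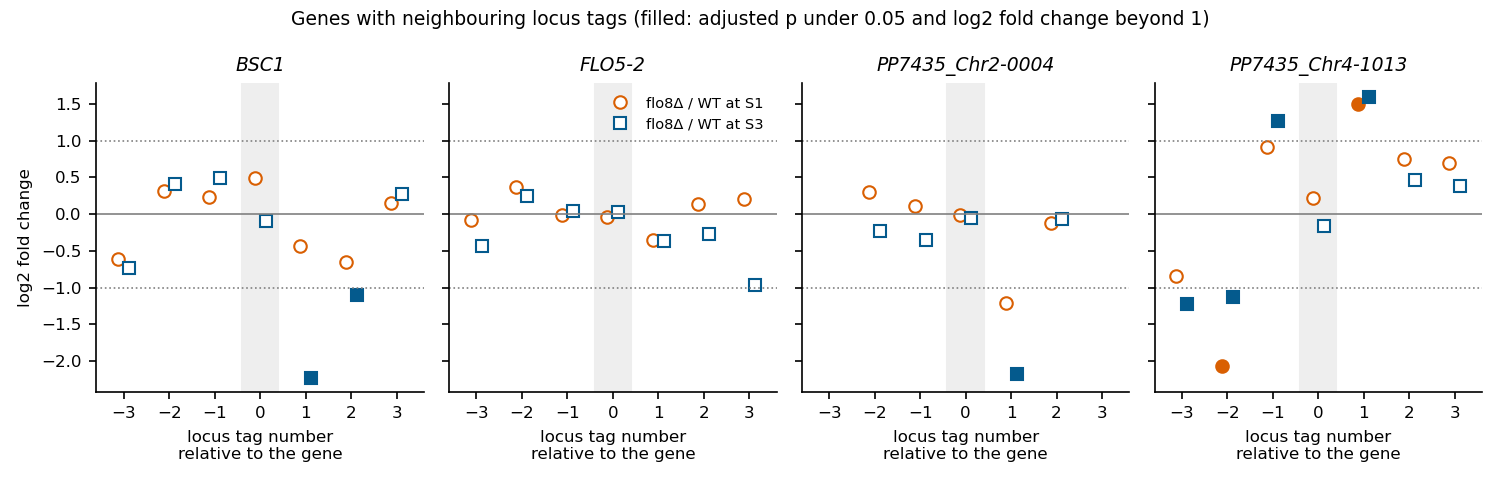
Log2 fold change between *flo8Δ* and wild type (vertical axis) at S1 (circles) and S3 (squares) for each member, shaded at 0, and for the genes up to 3 locus tag numbers away (horizontal axis). Filled symbols passed an adjusted p under 0.05 with a change beyond 1, such as -2.23 next to *BSC1* and 1.595 next to PP7435_Chr4-1013. The members lie between -0.16 and 0.49 on all reads. In the remaining reads, not drawn here, *FLO5-2* had -1.30 at S1 and -1.13 at S3, and PP7435_Chr4-1013 had -3.86 at S3. There *BSC1* had 0.37 at S1 and -0.10 at S3, and PP7435_Chr2-0004 had 0.014 and -0.06.

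The other 9 family genes included strongly Flo8-dependent ones. Between *flo8Δ* and wild type, 4 of the 8 that could be tested at S1 and 3 of 8 at S3 passed the adjusted p with a log2 fold change beyond 1, all of them lower in *flo8Δ*, beside 3.19% and 4.22% of all transcripts. Their median log2 fold change at S1 was -1.45, that of the 4 members was 0.11, and that of all transcripts was 0.00. The members were chosen for a low level in each group, wild type included. A family gene with a high level in the wild type, such as *FLO5-1*, could therefore not be a member. The contrast between the medians of members and other family genes is thus partly set by that choice. *FLO11*, which encodes an adhesin, had a log2 fold change of -7.59 at S3 (adjusted p = 1.3e-09), and *FLO5-1* one of -5.40 at S1 (adjusted p = 9.6e-09, limma). The share of reads in the stranded estimate also differed between the strains for *FLO5-1*, where it was 52.8% and 55.4% in *flo8Δ* at S1 and S3, against 1.197% and 2.88% in the wild type.

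Across the 15 libraries, *FLO5-2* and PP7435_Chr2-0004 varied most alike among the 4 genes, with a Pearson r of 0.847 on log2(TPM + 1). *BSC1* followed PP7435_Chr4-1013 (r = 0.639) more than *FLO5-2* (0.240) or PP7435_Chr2-0004 (0.220). *FLO200*, the fifth gene under 20 TPM, had an r of 0.792 with *FLO5-2* and 0.751 with PP7435_Chr4-1013. Among 5310 other transcripts with a mean of at least 10 reads, the most alike was PP7435_Chr1-1567 for *FLO5-2* (r = 0.976), PP7435_Chr2-1251 for PP7435_Chr2-0004 (0.926), PP7435_Chr3-0350 for *BSC1* (0.874) and PP7435_Chr2-0002 for PP7435_Chr4-1013 (0.869). PP7435_Chr2-0002 is itself 2 tags from PP7435_Chr2-0004, on another chromosome than PP7435_Chr4-1013. These correlations describe 15 libraries that share depth and composition, and no test was made of them.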

How the data were processed

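RNA-Seq of 15 chemostat samples was re-analysed, with groups from the sample labels. The authors quantified single reads of poly-A RNA with kallisto 0.43.1 on the CBS7435 annotation and normalized each comparison with DESeq2 1.14.1, as their methods and processing notes state. The authors deposited 6 tables of normalized counts (signal, DESeq2-normalized within each table of 6 libraries) and, per library, kallisto estimated counts, effective lengths and TPM. The deposited TPM of wild-type S1 replicate 1 are a fraction summing to 1 and were rescaled. All columns were used, leaving 0 unused.

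Each normalized count, after the table's effective-length factor where one applies, was a whole multiple of 1 step per column. Dividing gave whole reads, with 100% of values within 0.01 of a whole number and 0 of 36 columns differing between tables. TPM were computed from these reads and the effective lengths.

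Log2 (normalized count + 1) was fitted with limma 3.58.1 (R 4.3.3, trended variance, 2-sided) within each table, keeping transcripts that reached 10 normalized counts in 3 or more of the 6 libraries, with Benjamini-Hochberg adjustment over all of them. All 4 members passed this filter in each comparison. The interaction used the reads of 12 libraries with RLE size factors. limma served as the main test because the tables hold normalized values. Alternatives were edgeR 4.0.16 (TMM or RLE) and DESeq2 1.42.0 on the reads, edgeR on the rounded estimated counts and on the reads less these (the remaining reads), other filters, a pseudocount of 0.1, the replicate block, all 15 libraries in 1 fit, and each library left out. Leave-one-out, block and limma fits of the remaining reads were added after seeing the data. Correlations of same-numbered deviations were all over 0.1 only for wild-type S1 and S5, at 0.129 to 0.189. In none of the other 9 pairs of groups were all 3 over 0.1, and wild-type S3 and S5 had 0.417, -0.165 and 0.565. Libraries with different numbers were not compared, so whether replicate numbers mark shared cultures was not settled. No 2 replicates agreed within sampling noise. Genes named in the text are the members, the other family genes, *FLO8*, the most correlated transcripts, and tags within 3 of a member that passed the fold threshold. Members and lists were chosen with earlier results of these data known. The reference table of another strain matched 0 of the locus tags. Scripts were tested on simulated data.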

Additional observations from a re-analysis of the deposited data

Results flagged for a closer look

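The response of *BSC1* to slow growth differed between the strains by -0.57 on the log2 scale (*flo8Δ* minus wild type, SE 0.14, adjusted p = 0.039 for the interaction of strain and sampling point, limma). The log2 fold change of S3 against S1 was -0.68 in *flo8Δ* and -0.11 in the wild type. In TPM, S3 was below S1 in all 3 libraries of *flo8Δ*, and the wild-type libraries overlapped. With 1 library left out, 9 of 12 fits gave an adjusted p between 0.052 and 0.093, and edgeR gave 0.11 both in the estimated counts and in the remaining reads.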

How the results depend on the processing

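Over 4 genes and 7 contrasts, 155 of 192 values with 1 library left out and 245 of 267 under the other alternatives kept their direction and their side of the threshold. The number of members called was 2 at S1 and 2 at S3 between *flo8Δ* and wild type in the remaining reads (1 and 0 in limma on all reads), and in the estimated counts it was 0 for S3 against S1 of the wild type and 0 for the interaction (1 each in limma). For S5 against S1 of the wild type it was 1 with the replicate block, 1 with DESeq2, 1 in the remaining reads and 2 with all 15 libraries in 1 fit, against 0. With 1 library left out it ranged from 0 to 1 between the strains at S3, 0 to 3 for S3 against S1 of the wild type, 0 to 1 for S5 against S3, 0 to 1 for S5 against S1 and 0 to 1 for the interaction. PP7435_Chr4-1013, 1 of the 2 members called between the strains at S3 in the remaining reads, entered that test only through the wild-type libraries. In the deposited kallisto TPM, which scale the estimated counts alone to the full total, 8 of 20 group means were under 20 TPM. In the remaining reads the replicate block ended the call of *BSC1* between the strains at S1 (adjusted p = 0.054, edgeR), and it changed no other call of a member. Signs turned mostly for values near 0. That of PP7435_Chr4-1013 for S3 against S1 of the wild type was further from 0 and turned in the remaining reads, which are a part of all reads. Between the strains at S1, *FLO5-2* had 0.15 in the estimated counts and PP7435_Chr2-0004 had 0.012 and 0.013 with edgeR (TMM and RLE), 0.0012 with DESeq2 and 0.014 in the remaining reads. *FLO5-2* had -1.13 at S3 between the strains in the remaining reads and -0.022 for the interaction in the estimated counts, and PP7435_Chr4-1013 had 0.82 for S3 against S1 and 1.33 for S5 against S1 of the wild type in the remaining reads. With 1 library left out, *FLO5-2* ranged from -0.12 to 0.036 (S1) and -0.034 to 0.14 (S3) between the strains. PP7435_Chr2-0004 ranged from -0.18 to 0.15 (S1) and -0.17 to 0.074 (S3) between the strains, -0.20 to 0.037 for S5 against S3 and -0.19 to 0.14 for the interaction. PP7435_Chr4-1013 ranged from -0.16 to 0.040 for S5 against S1 and, in the remaining reads, from -0.31 to 0.93 for S5 against S3. The causes were not tested. Over all transcripts, limma called 1632, 2831, 1671, 1744, 2061 and 188 in the 6 comparisons (strains at S1 and S3, S3 against S1 of *flo8Δ* and of the wild type, S5 against S3, S5 against S1) and 272 in the interaction, and edgeR on the estimated counts called 561, 1218, 325, 415, 836, 33 and 30. For S5 against S1 the replicate block called 454, DESeq2 578 and all 15 libraries in 1 fit 1294, and DESeq2 called 468 in the interaction. With 1 library left out the count ranged from 0 to 488 for S5 against S1 and from 71 to 1032 for the interaction, and went down to 865 between the strains at S1, 807 for S3 against S1 of the wild type and 1209 for S5 against S3. The members rest on as few as 46 reads a library, which limits PP7435_Chr2-0004 most.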
